A study of Mus musculus with 21 samples.

Results

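The 6 bulk RNA-seq libraries described here compare the endothelium of lung with that of liver: 3 libraries of cells from lung against 3 from liver, out of 9 bulk RNA libraries and 21 samples in the whole series. They were chosen by the tissue that their labels give. All came from C57BL/6J mice, with no transgene or treatment in either group, aged 2 to 4 months. Mice were perfused, both organs were digested with collagenase, dispase and DNase in the warm, and live cells were sorted that carried CD31, the product of Pecam1, but neither the pericyte receptor PDGFRβ nor the leukocyte antigen CD45. A library holds whatever mix of arterial, capillary, venous and other CD31-positive cells passed that gate. The labels call the libraries of a tissue biological replicates and do not say how many mice gave each; the p-values below measure the spread between these libraries.

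The endothelium of these organs does different work. In the lung most of it forms the thin, closed capillary net of the alveolus, where gas is exchanged; one capillary class, the aerocyte, faces the airspace, and the other, the general capillary cell, serves as its progenitor and regulates tone. In the liver the sinusoid is lined by discontinuous cells with open pores, which take up waste proteins, immune complexes and lipid remnants from portal blood by receptor-mediated endocytosis and which send signals to the hepatocytes beside them. The transcription factor Gata4 is known to specify the sinusoidal lining, and the Foxf1-Fendrr locus is known for its part in the vessels of the lung.

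The lung libraries held 2992101 to 11308897 counts and the liver libraries 18485600 to 25690571. Gene levels are given in CPM, counts scaled to a library of fixed size, in the order of replicates 1, 2 and 3. They are not divided by transcript length, so levels are compared between tissues and not between genes. Beside them stand the log2 ratio of lung to liver (the log2 fold change) ± its standard error, above 0 where lung is higher, and the p that edgeR adjusted over all genes. Across genes, which are no independent replicates, Pearson correlations of the libraries' log2 levels were 0.820 to 0.905 within a tissue and 0.543 to 0.646 between tissues. The first principal component held 59.0% of the variance and separated the tissues; on the second, with 17.3%, lung 2 and liver 2 lay apart from the other libraries of their tissue. Transcripts of other cells were present. Summed markers of hepatocytes came to 779 to 1337 CPM in liver and 7.12 to 12.8 in lung, where 13 of 21 had no count. Those of lung epithelium came to 425 to 1942 CPM in lung, highest in lung 2, and 49.3 to 64.6 in liver, where 10 of 19 had no count. Lymphocyte markers summed to 90.9 to 162 CPM in lung and 0.65 to 7.01 in liver, and pan-endothelial genes to 18104 to 24341 and 22319 to 29059. In sorted populations measured in bulk, fewer cells of a type and less RNA per cell cannot be told apart.

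The 2 beds differed in a large part of their transcriptome. Of 12240 genes tested, 1901 (15.5%) were called different at an edgeR adjusted p under 0.05 and a fold change of at least 2, with 1002 (8.19%) higher in lung and 899 (7.34%) lower. Each list count below is to be read against those shares. For 1897 of the called genes the lung and liver libraries did not overlap, against 36.2% of all genes tested. Many differences were large: 718 called genes differed by at least 5 on the log2 scale. Of the 1002 genes called higher in lung, 201 had no count in any liver library, and of the 899 called lower 102 had none in any lung library. The median log2 fold change over all tested genes was -0.03. Without lung 2 the test called 708 genes higher and 689 lower, without liver 2 it called 1038 and 833, and without both libraries 1175 and 935, of which 1591 were among the 1901. Without lung 3 it called 695 and 542.

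**Figure D1:**
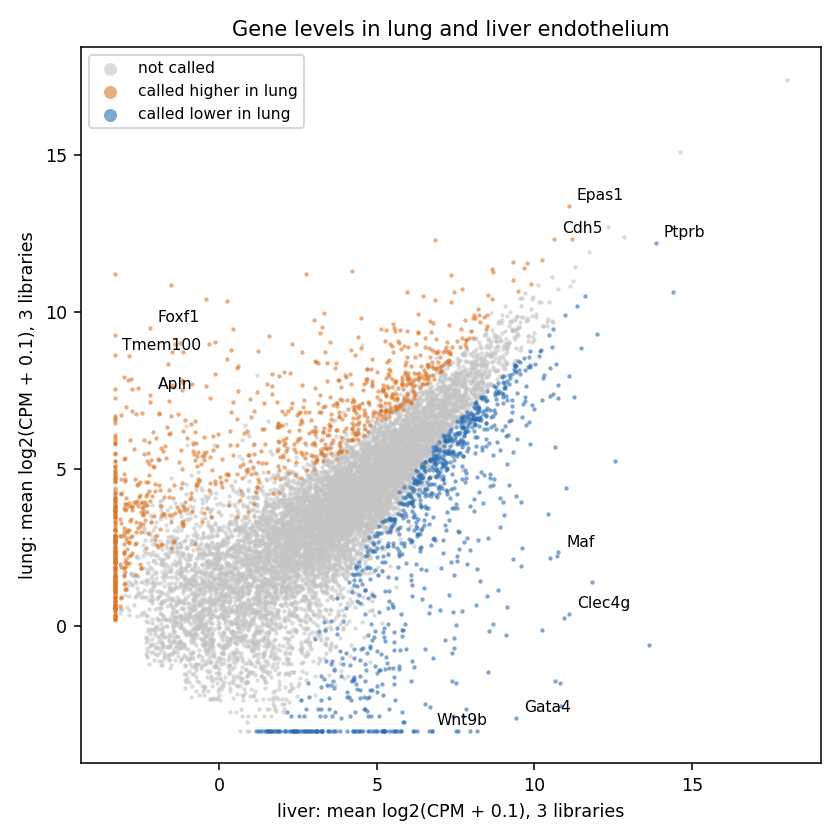
Mean log2 level in lung against liver for the 12240 tested genes, with 0.1 CPM added for drawing; each point is a gene, orange where called higher in lung (1002 genes), blue where called lower (899) and grey otherwise. Genes without a count in one tissue lie along the axes, and the genes named on the plot are described in the text.

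Leading genes were chosen for the largest fold or for no count in the other tissue. Their near silence in the other tissue is largely set by that choice. Among genes of at least moderate level, the largest difference towards lung was that of the long non-coding RNA Fendrr, the neighbour of Foxf1, at 1704, 3325 and 2311 CPM in lung and no count in liver (at least 50746-fold higher in lung, adjusted p = 2.38e-06). Tmem100, a membrane protein of the ALK1 pathway, had 398, 449 and 337 CPM in lung and no count in liver (at least 8184-fold higher in lung, adjusted p = 3.17e-06). Ntrk2, the receptor of the neurotrophin BDNF, had 54.8, 188 and 65.6 CPM in lung and no count in liver (at least 2131-fold higher in lung, adjusted p = 0.000125). The secreted protein gene Scube1 had 97.3, 120.4 and 82.5 CPM in lung and no count in liver (at least 2075-fold higher in lung, adjusted p = 2.39e-05). The non-classical cadherin gene Celsr2, which acts in planar polarity, had 82.6, 118 and 84.4 CPM in lung and no count in liver (at least 1973-fold higher in lung, adjusted p = 2.69e-05). Each of these genes was high in all 3 lung libraries, but the choice of leading genes required libraries without overlap between the tissues. Scgb1a1, which encodes the secretory protein of airway club cells, was among the leading genes as well, at 261, 1729 and 529 CPM in lung and no count in liver (at least 17417-fold higher in lung, adjusted p = 9.88e-05); it is a lung epithelial marker, and what part epithelial RNA has in other lung genes was not tested.

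Towards liver the leading genes included some known from the sinusoid: Gata4 had 0, 0 and 0.129 CPM in lung and 496, 1173 and 547 in liver (adjusted p = 3.5e-06), with 1 count over the 3 lung libraries. Wnt9b, a Wnt ligand that acts on hepatocytes, had 235, 81.4 and 52.6 CPM in liver and no count in lung (at least 949-fold higher in liver, adjusted p = 0.00028), and its liver 1 value was the highest. Sema3d, a secreted class 3 semaphorin, had 95.9, 166 and 77.6 CPM in liver and no count in lung (at least 875-fold higher in liver, adjusted p = 6.94e-05). Major hepatocyte products were among them too. Alb, which encodes albumin, had 313, 202 and 394 CPM in liver and no count in lung (at least 2339-fold higher in liver, adjusted p = 1.47e-05). Apob, the structural apolipoprotein of very low density lipoprotein, had 195, 133 and 269.9 CPM in liver and no count in lung (at least 1540.2-fold higher in liver, adjusted p = 2.39e-05). Serpina1e, an α1-antitrypsin gene with near-identical copies whose reads the counting could split, had 157, 238 and 411 CPM in liver and no count in lung. Fam167b, Rgs7bp, Ppfia2 and the secreted DNase gene Dnase1l3 were also among the leading liver genes. Of 19 tested hepatocyte markers 17 were called lower in lung, with liver 2 the lowest of the liver libraries in their sum. How much of the RNA of such secreted liver proteins came from hepatocytes was not tested.

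Factors of the lung vasculature that passed the test were mostly higher in lung, and those of the sinusoid higher in liver. Of 11 tested genes of this lung list, Fendrr and 10 transcription factors, 6 were higher in lung and 1 (0 without lung 3) lower (median log2 fold change 2.24), against 8.19% and 7.34% of all genes tested. The forkhead factor Foxf1, required for lung vessel development, had 653, 816 and 715 CPM in lung and 0, 0 and 0.924 in liver (log2 ratio 11.06 ± 1.09, adjusted p = 0.000103). The T-box factor Tbx3 had 651, 789.5 and 691 CPM in lung and 0.272, 4.3 and 1.43 in liver (log2 ratio 8.46 ± 0.84, adjusted p = 0.000105). Tbx2 had 129.6, 274 and 171 CPM in lung and 36.8, 52 and 26.3 in liver (log2 ratio 2.32 ± 0.40, adjusted p = 0.0035). Epas1, the hypoxia-inducible factor HIF-2α of endothelium, had 11693, 11303 and 8810.5 CPM in lung and 1885, 3028 and 1837 in liver (log2 ratio 2.24 ± 0.24, adjusted p = 0.000198), a difference of degree with high levels on both sides. Mef2c went the other way, with 97.3, 63 and 82.8 CPM in lung and 174, 267 and 204 in liver (log2 ratio -1.41 ± 0.31, adjusted p = 0.0126). Sox17, an arterial SoxF factor, had 93.5, 73.7 and 67.4 CPM in lung and 113, 22 and 86.2 in liver and was not called (edgeR adjusted p = 0.939). The call was lost on leaving out 1 library for Mef2c without lung 3 (adjusted p = 0.055).

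Of 15 tested factors of the sinusoid 7 were lower in lung and 0 higher by edgeR (1 at an unadjusted p under 0.05, 1 by DESeq2, 1 without liver 1) (median -1.48); the count was 7 in each of the 6 fits that left out 1 library. Maf, a leucine zipper factor of the sinusoidal lining, had 1719, 2262 and 1334 CPM in liver and 3.23, 7.83 and 4.92 in lung (log2 ratio -8.44 ± 0.44, adjusted p = 2.97e-06). Tfec, a factor of the MiT family, had 79.3, 26.2 and 86.9 CPM in liver and 0.0808, 0 and 0 in lung (adjusted p = 9.88e-05). The orphan receptor gene Nr2f2, which encodes the venous factor COUP-TFII, had 296, 199 and 260.2 CPM in liver and 7.92, 2.28 and 8.28 in lung (log2 ratio -5.3 ± 0.50, adjusted p = 8.06e-05). The homeobox factors Lhx6 and Meis2 were higher in liver too: Lhx6 had 189, 221 and 142 CPM in liver and 1.7, 0 and 6.08 in lung (log2 ratio -6.04 ± 0.86, adjusted p = 0.00106). Meis2 had 322, 572 and 413 CPM in liver and 113, 76 and 71.1 in lung (log2 ratio -2.33 ± 0.32, adjusted p = 0.000911). Hhex and Prox1, known from the developing liver, were not called, with 60, 29.7 and 34.7 CPM in lung and 48.7, 19.9 and 82.5 in liver for Hhex and 11, 5.87 and 3.37 CPM in lung and 11.3, 1.6 and 16.4 in liver for Prox1.

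Other families of factors were tested as well. Of 17 forkhead factors 5 (2 without lung 1, 2 without lung 2, 2 without lung 3, 3 without liver 1, 2 without liver 3) were higher in lung and 0 lower by edgeR (1 at an unadjusted p under 0.05, 1 by DESeq2). Of 8 tested GATA and T-box factors 4 were higher in lung and 1, Gata4, was lower. Gata2, the general endothelial and haematopoietic GATA factor, had 509, 549 and 325 CPM in lung and 42.9, 97.9 and 38.2 in liver (log2 ratio 2.95 ± 0.42, adjusted p = 0.00105). Gata3 had 21.6, 11.4 and 20.3 CPM in lung and 0, 0.4 and 0 in liver (log2 ratio 6.98 ± 1.5, adjusted p = 0.0109). Of 9 Sox factors 3 were higher in lung and 1 (0 without lung 1, 0 without lung 2, 0 without lung 3, 0 without liver 1) lower. Sox11 had 181, 104 and 108 CPM in lung and 0.109, 0 and 0 in liver (adjusted p = 1.95e-05). Sox13 had 353, 544 and 313 CPM in lung and 24, 17.3 and 18.3 in liver (log2 ratio 4.34 ± 0.35, adjusted p = 2.69e-05). The flow-responsive factor Klf4 had 709.7, 577 and 658 CPM in lung and 58.5, 144 and 57.6 in liver (log2 ratio 2.91 ± 0.39, adjusted p = 0.000713). Klf2 had 231, 192 and 173 CPM in lung and 118, 80.2 and 60.6 in liver (log2 ratio 1.2 ± 0.33, adjusted p = 0.0335); of 13 Krüppel-like factors 4 were higher in lung and 0 lower by edgeR (0 at an unadjusted p under 0.05, 0 by DESeq2). Of the ETS factors of all endothelium, Erg and Ets1 were higher in liver. Erg had 299.8, 424 and 258 CPM in lung and 563, 987 and 525 in liver (log2 ratio -1.08 ± 0.31, adjusted p = 0.0418). Ets1 had 367, 326 and 236 CPM in lung and 856, 1206 and 758 in liver (log2 ratio -1.6 ± 0.27, adjusted p = 0.003). Fli1 was not called, at 95.5, 128 and 126 CPM in lung and 109.8, 69 and 94.6 in liver. On leaving out 1 library the call was lost for Klf2 without lung 1, lung 2, lung 3, liver 2 and liver 3 (adjusted p = 0.124, 0.0693, 0.079, 0.0628 and 0.119) and Erg without lung 1, lung 3 and liver 2 (adjusted p = 0.103, 0.147 and 0.0967). Another setting ended the call for Erg with RLE size factors (adjusted p = 0.0661) and for Erg with scaling by library size alone (adjusted p = 0.052). In a different fit the call was lost for Erg without Rn45s, Malat1 and mitochondrial genes (adjusted p = 0.0559) and for Klf2 and Erg without both lung 2 and liver 2 (adjusted p = 0.0615 and 0.0178 with a fold under 2).

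**Figure D2:**
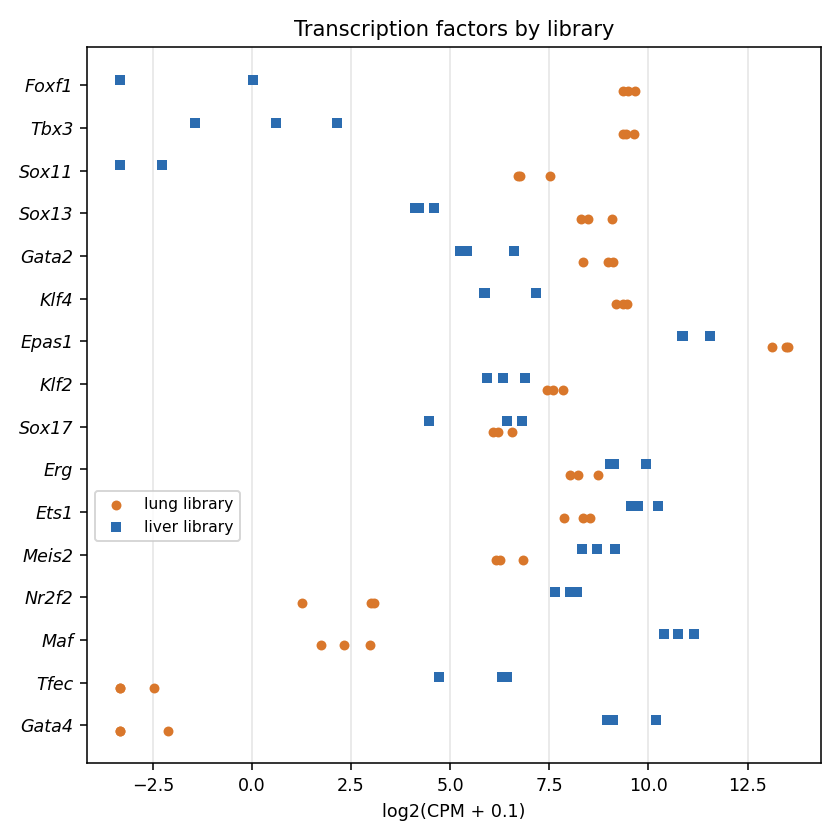
Level of 16 transcription factors in each library on a log2 axis (CPM with 0.1 added), orange circles for the 3 lung libraries and blue squares for the 3 liver libraries. Liver libraries without a count for Foxf1 or Sox11, and lung libraries without one for Gata4 or Tfec, lie at the left end, while Epas1, Klf2, Erg and Ets1 are well above it in both tissues.

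Listed genes of both alveolar capillary classes were more often called higher in lung than lower. Of 13 tested genes of the aerocyte 10 were higher and 0 lower by edgeR (1 at an unadjusted p under 0.05, 0 by DESeq2) (median 4.08), and the count was 10 in each of the fits that left out 1 library. Apln, the ligand of the apelin receptor, had 102, 225 and 192 CPM in lung and 0, 0 and 0.924 in liver (log2 ratio 9.0 ± 1.2, adjusted p = 0.000699). Prx, a PDZ protein best known from myelinating glia, had 409, 664 and 548 CPM in lung and 4.02, 0 and 1.68 in liver (log2 ratio 8.15 ± 1.1, adjusted p = 0.000764). Emp2, a tetraspan membrane protein, had 1297, 1084 and 1604 CPM in lung and 17.1, 0 and 0.882 in liver (log2 ratio 7.8 ± 1.51, adjusted p = 0.00619). For all 3 genes every lung library lay far above every liver library. Nearly all called genes, 1897 of 1901, were without overlap. Ednrb, the endothelin B receptor, had 656, 683 and 741 CPM in lung and 42.2, 54.2 and 26.7 in liver (log2 ratio 4.08 ± 0.32, adjusted p = 2.69e-05). The VEGF receptor gene Kdr, which is high in aerocytes, was not called, at 618, 879 and 989 CPM in lung and 1232, 1489 and 1309.5 in liver (edgeR adjusted p = 0.071). Under another setting the call was lost for Emp2 with no filter on low counts (adjusted p = 0.123).

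Of 15 genes of the general capillary cell 9 were higher in lung and 1 (2 without lung 2) was lower (median 1.45). The apelin receptor gene Aplnr had 127, 73.1 and 137 CPM in lung and 0.109, 0.1 and 0 in liver (log2 ratio 10.56 ± 0.80, adjusted p = 2.18e-05), so both the ligand and the receptor of this pair were close to absent from liver. Glp1r, the receptor of the incretin GLP-1, had 194, 494 and 266 CPM in lung and 3.37, 0.1 and 4.49 in liver (log2 ratio 6.89 ± 1.00, adjusted p = 0.00119). Lpl, lipoprotein lipase, varied between lung libraries, at 307, 82.2 and 60.6 CPM in lung and 0.163, 7.1 and 5.04 in liver (log2 ratio 5.19 ± 1.1, adjusted p = 0.00996). Gpihbp1, which anchors that lipase to the capillary wall, was not called, at 112, 222 and 106 CPM in lung and 229.8, 299.8 and 215 in liver. Kit, the stem cell factor receptor, was not called either, at 634, 673 and 504 CPM in lung and 1065, 1202 and 541 in liver. Ptprb, the phosphatase VE-PTP, was the member lower in lung, with 5175, 4390.3 and 4411 CPM in lung and 14221, 17158 and 13113 in liver (log2 ratio -1.67 ± 0.18, adjusted p = 0.00019). The call was absent for Lpl with no filter on low counts (adjusted p = 0.0974). Not called here, Gpihbp1 was called without lung 2 (adjusted p = 0.0334) and without both lung 2 and liver 2 (adjusted p = 0.0228).

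Clearance receptors were more often higher in liver. Of 21 tested scavenger and clearance receptors 11 were lower in lung and 2 (1 without lung 1, 1 without lung 2, 1 without lung 3, 1 without liver 2, 1 without liver 3) higher (median -1.82). Mrc1, the mannose receptor, had 1967, 2059 and 1823 CPM in liver and 2.02, 0.326 and 1.81 in lung (log2 ratio -10.26 ± 0.47, adjusted p = 1.98e-06). Clec4g, the sinusoidal lectin LSECtin, had 1664, 3879 and 1644 CPM in liver and 0.808, 3.91 and 0.518 in lung (log2 ratio -10.78 ± 0.79, adjusted p = 1.91e-05). The inhibitory Fc receptor gene Fcgr2b, which binds immune complexes, had 1211, 1726 and 1411 CPM in liver and 1.21, 26.8 and 2.59 in lung (log2 ratio -7.3 ± 1.06, adjusted p = 0.00123), with lung 2 the highest of the lung libraries. Dab2, an endocytic adaptor that sorts such receptors into clathrin pits, had 1389, 1953 and 1503 CPM in liver and 34.4, 66.2 and 60.4 in lung (log2 ratio -4.92 ± 0.33, adjusted p = 1.17e-05). Fcgrt, the neonatal Fc receptor that recycles IgG and albumin, had 275, 326 and 229 CPM in liver and 10.6, 21.5 and 19.3 in lung (log2 ratio -4.03 ± 0.38, adjusted p = 8.06e-05). For each of these 5 genes the liver libraries lay above every lung library, a lack of overlap shared by 1897 of all 1901 called genes. A different setting gave no call for Fcgr2b with no filter on low counts (adjusted p = 0.0561).

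The class was not uniform. Stab1, a relative of the hyaluronan receptor Stab2, kept a level in lung, with 483, 672 and 461 CPM in liver and 68.6, 71.8 and 116 in lung (log2 ratio -2.66 ± 0.31, adjusted p = 0.000323), while Stab2 had 5 counts over the lung libraries. Lyve1, the other hyaluronan receptor, was not called, at 1057, 849.6 and 713 CPM in lung and 636, 964 and 429 in liver (edgeR adjusted p = 0.495). The fatty acid and thrombospondin receptor gene Cd36 was higher in lung, with 1049, 845 and 983 CPM in lung and 285, 315 and 228 in liver (log2 ratio 1.8 ± 0.23, adjusted p = 0.000577). Kupffer cells, the macrophages of the sinusoid, also carry Mrc1 and Msr1; summed Kupffer markers were 217 to 259 CPM in liver, most of it from the iron exporter gene Slc40a1, and the defining markers were at or near 0, with 27 counts each for Clec4f and Timd4 and 45 for Vsig4 over the 3 liver libraries. Msr1, the class A scavenger receptor, had 240.0, 151 and 263 CPM in liver and 0.162, 0 and 0 in lung (adjusted p = 7.3e-06). Another setting ended the call for Cd36 in a fit that added the brain libraries (adjusted p = 0.163).

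Endosomal and lysosomal genes were called in both directions, more of them lower in lung. Of 50 tested 11 were lower in lung and 4 higher (median -0.63). The cysteine protease genes Ctsb and Lgmn were lower in lung: Ctsb had 685, 1023 and 691 CPM in liver and 118, 90 and 96.3 in lung (log2 ratio -2.97 ± 0.27, adjusted p = 7.12e-05). Lgmn, which encodes legumain, had 95.1, 92.4 and 98 CPM in liver and 13.3, 11.4 and 15.8 in lung (log2 ratio -2.81 ± 0.39, adjusted p = 0.000885). Snx5, a sorting nexin of the retromer, had 171, 164 and 159.8 CPM in liver and 24.9, 15 and 23.3 in lung, and Lamp2, a lysosomal membrane protein, 1389.5, 959.9 and 1529 CPM in liver and 339, 201 and 239.8 in lung. Ctsa, the protective protein of lysosomal glycosidases, went the other way, with 397, 429 and 443 CPM in lung and 46.2, 56.2 and 35.6 in liver (log2 ratio 3.2 ± 0.29, adjusted p = 6.03e-05). Of 42 tested Rab GTPases, which direct vesicle traffic, 4.76% were called, against 15.5% of all genes tested. By edgeR 2 (1 without lung 3, 1 without liver 1, 1 without liver 3) were lower in lung. The lower side had 10 at an unadjusted p under 0.05 and 3 by DESeq2. By edgeR 0 were higher (2 at an unadjusted p under 0.05, 1 by DESeq2, 1 without lung 1, 1 without lung 2, 1 without liver 1, 1 without liver 2).

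**Figure D3:**
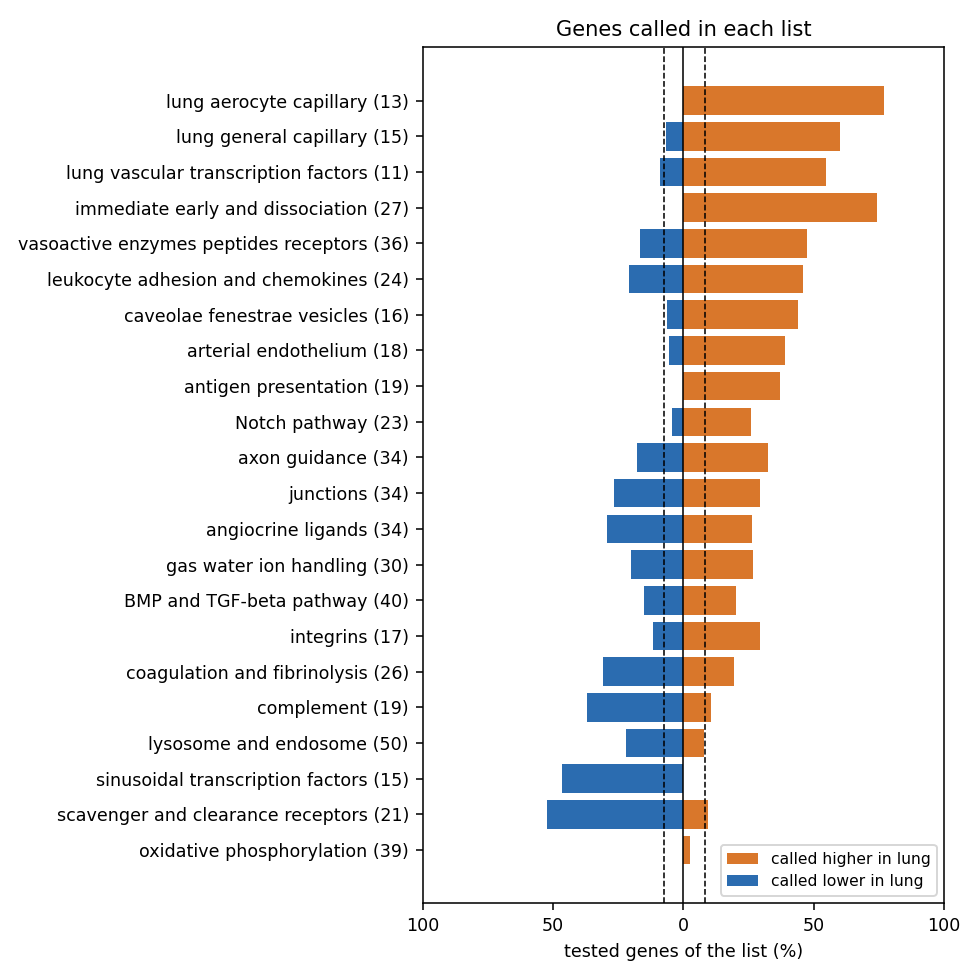
Share of the tested genes of 22 gene lists called higher in lung (orange, to the right) and lower in lung (blue, to the left), with the number tested in brackets. Dashed lines mark the shares over all tested genes, 8.19% and 7.34%.

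Genes that control clotting were called in both directions. Of 26 tested 5 were higher in lung and 8 lower (median -0.30). The lung side held the surface anticoagulant Thbd, thrombomodulin, with 3509, 2415 and 2153 CPM in lung and 665, 267 and 365 in liver (log2 ratio 2.64 ± 0.35, adjusted p = 0.000751). The platelet-binding protein Vwf had 252, 438 and 165 CPM in lung and 43, 29.8 and 54.5 in liver (log2 ratio 2.75 ± 0.42, adjusted p = 0.00166). It also held genes of fibrinolysis. The urokinase receptor Plaur had 93.5, 148 and 91.6 CPM in lung and 0.598, 0 and 0.168 in liver (log2 ratio 8.75 ± 0.95, adjusted p = 0.0002). The plasminogen activator Plat had 62.5, 43.4 and 28.2 CPM in lung and 1.25, 0 and 1.64 in liver (log2 ratio 5.52 ± 1.16, adjusted p = 0.00932). The liver side held Tfpi, the tissue factor pathway inhibitor, with 574, 819 and 720.2 CPM in liver and 54.2, 44.7 and 99.8 in lung (log2 ratio -3.41 ± 0.35, adjusted p = 0.000151). Pros1, protein S, had 459, 468 and 400.3 CPM in liver and 98.7, 41.4 and 112 in lung (log2 ratio -2.39 ± 0.37, adjusted p = 0.0018). Gas6, a ligand of TAM receptors related to protein S, had 202, 237 and 212 CPM in liver and 12.1, 2.94 and 7.25 in lung (log2 ratio -4.81 ± 0.50, adjusted p = 0.000153). F2r, the thrombin receptor PAR1, had 857, 1207 and 751 CPM in liver and 63.2, 136 and 84.4 in lung (log2 ratio -3.32 ± 0.35, adjusted p = 0.000157). The gene Mcfd2, whose product helps to carry factors V and VIII out of the endoplasmic reticulum, had 117, 21.6 and 73.4 CPM in liver and 8.81, 15 and 9.45 in lung (log2 ratio -2.68 ± 0.64, adjusted p = 0.0175). Its cargo F8, factor VIII, had 3742, 3582 and 3638 CPM in liver and 3.15, 1.3 and 4.01 in lung (log2 ratio -10.24 ± 0.40, adjusted p = 9.19e-07). Its partner Lman1 was not called, at 62.8, 31 and 83 CPM in lung and 56.1, 75.9 and 85.9 in liver. A single left-out library ended the call for Mcfd2 without lung 1, lung 3 and liver 1 (adjusted p = 0.06, 0.0662 and 0.0687).

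Complement genes were more often lower in lung. Of 19 tested complement genes 7 were lower in lung and 2 higher (median -2.57). Cd55, which dissolves the C3 convertase on the cell surface, had 1531, 1504 and 1121 CPM in liver and 17, 5.22 and 18.9 in lung (log2 ratio -6.62 ± 0.48, adjusted p = 1.91e-05). Cd59a, which blocks the membrane attack complex, had 408, 315 and 421 CPM in liver and 1.45, 0 and 4.66 in lung (log2 ratio -7.41 ± 0.78, adjusted p = 0.000165). For both regulators each liver library lay above each lung library, and such separation was found in 1897 of all 1901 called genes. Hepatocytes also make complement proteins. Their summed markers, 779 to 1337 CPM in liver and 7.12 to 12.8 in lung, moved the same way, and their part in the complement values was not tested.

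Among ligands sent to neighbouring cells some were higher in lung, some were higher in liver and 15 were not called. Of 34 tested angiocrine ligands 9 were higher in lung and 10 lower (median 0.09). On the liver side stood the Wnt signals of the sinusoid. Wnt2 had 253, 259.5 and 175 CPM in liver and 0.323, 0 and 0 in lung (log2 ratio -10.39 ± 0.71, adjusted p = 1.33e-05), with 4 counts over the lung libraries, and Rspo3, which amplifies Wnt signals, had 342, 243 and 361 CPM in liver and 3.47, 1.63 and 3.11 in lung (log2 ratio -6.77 ± 0.42, adjusted p = 7.3e-06). Bmp2, the iron-sensing signal to hepatocytes, had 1511, 1846 and 1475 CPM in liver and 0.323, 0 and 0.518 in lung (log2 ratio -12.18 ± 0.48, adjusted p = 9.19e-07). Hgf, the hepatocyte growth factor, had 68.2, 86.4 and 66.8 CPM in liver and 11.2, 9.79 and 12.2 in lung (log2 ratio -2.74 ± 0.43, adjusted p = 0.00177). Stellate cells also make it. Their marker sum was 229 to 273 CPM in liver, where 4 of 12 markers had no count, and 220.3 to 736 in lung. That sum includes Hgf itself, and Dcn, Col1a1 and Des, which are fibroblast or mural markers too. It cannot compare stellate cells between the tissues, and their part in Hgf was not tested. On the lung side Sema3c had 497, 371 and 417 CPM in lung and 1.14, 0 and 0.63 in liver (log2 ratio 9.49 ± 0.89, adjusted p = 8.06e-05). Pdgfb, which recruits mural cells, had 107, 331 and 168 CPM in lung and 21.8, 23.6 and 25 in liver (log2 ratio 3.11 ± 0.45, adjusted p = 0.00112). Kitl, stem cell factor, had 561, 355 and 509.7 CPM in lung and 82.3, 152 and 82.4 in liver (log2 ratio 2.17 ± 0.33, adjusted p = 0.0017). Cxcl12, a chemokine that retains leukocytes and progenitors, had 396, 218 and 278 CPM in lung and 21.9, 37.7 and 27 in liver (log2 ratio 3.37 ± 0.36, adjusted p = 0.000193). Tgfb1 was not called, at 59.7, 61.7 and 59 CPM in lung and 47, 56.3 and 117 in liver.

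Wnt pathway genes were called in both directions. Of 31 tested Wnt pathway genes 5 (1 without lung 1, 1 without lung 2, 3 without lung 3, 2 without liver 3) were higher in lung and 8 lower. Axin2, a general β-catenin target and inhibitor, had 21.8, 17.6 and 19.3 CPM in lung and 4.07, 0.95 and 0.882 in liver (log2 ratio 3.31 ± 0.88, adjusted p = 0.0294). The inhibitors Znrf3 and Nkd1 were higher in lung as well: Znrf3, which removes frizzled receptors, had 32.8, 68.2 and 49.2 CPM in lung and 0, 3.5 and 0.378 in liver (log2 ratio 5.26 ± 1.3, adjusted p = 0.0213). Nkd1 had 228, 372 and 207 CPM in lung and 59.1, 129 and 28.3 in liver (log2 ratio 1.9 ± 0.51, adjusted p = 0.0309). The repressor Tcf7l1 went to liver, at 133, 265 and 94.8 CPM in liver and 12.8, 19.2 and 7.38 in lung (log2 ratio -3.66 ± 0.53, adjusted p = 0.00121). Leaving out 1 library ended the call for Axin2 without lung 1, lung 2, lung 3 and liver 3 (adjusted p = 0.0975, 0.0629, 0.0908 and 0.0854), Znrf3 without lung 2 and liver 3 (adjusted p = 0.079 and 0.0643) and Nkd1 without lung 1, lung 2, liver 1 and liver 3 (adjusted p = 0.0559, 0.116, 0.0895 and 0.0709).

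BMP and TGF-β genes were called in both directions. Of 40 tested 8 (4 without lung 1, 5 without lung 2) were higher in lung and 6 lower (median -0.50). Receptors of the BMP branch were higher in lung: Acvrl1, which encodes ALK1, had 758, 1284 and 755 CPM in lung and 45.3, 19.9 and 13.1 in liver (log2 ratio 5.16 ± 0.51, adjusted p = 0.000104). Bmpr2 had 5939.9, 4416 and 4965 CPM in lung and 2399, 2539.8 and 2074 in liver (log2 ratio 1.13 ± 0.19, adjusted p = 0.003). The feedback inhibitor Smad6 had 228, 349.7 and 143 CPM in lung and 57.6, 38.3 and 47.5 in liver (log2 ratio 2.33 ± 0.38, adjusted p = 0.00252). The target Id1 had 53.6, 35.2 and 42.1 CPM in lung and 5.27, 7.75 and 13.7 in liver (log2 ratio 2.29 ± 0.56, adjusted p = 0.0203). The coreceptor endoglin, Eng, was not called, at 1152, 1897 and 975 CPM in lung and 1244, 1619.8 and 1425 in liver (edgeR adjusted p = 0.87). The liver side held Tgfbr2, the type II receptor of TGF-β, with 501, 549 and 641 CPM in liver and 158, 121 and 168 in lung (log2 ratio -1.92 ± 0.25, adjusted p = 0.000621). The latency protein Ltbp4 had 206, 369 and 322 CPM in liver and 57.9, 78.3 and 61.9 in lung (log2 ratio -2.18 ± 0.32, adjusted p = 0.00124). Id3 and Id4 were higher in liver, unlike Id1. Id3 had 245, 267 and 215 CPM in liver and 93.6, 87.4 and 85.4 in lung (log2 ratio -1.45 ± 0.27, adjusted p = 0.0046). Id4 had 19.3, 36.2 and 46.8 CPM in liver and 0.646, 0 and 0.518 in lung (log2 ratio -6.2 ± 0.91, adjusted p = 0.00135). Id2 was not called, at 14.4, 28.7 and 13.1 CPM in lung and 25.6, 15 and 27.8 in liver. Bmp6, the second iron-sensing ligand, was higher in lung at a smaller fold than Bmp2 was in liver, with 208, 402 and 211 CPM in lung and 96, 56.6 and 159 in liver (log2 ratio 1.4 ± 0.42, adjusted p = 0.0497). The call was lost on leaving out 1 library for Bmpr2 without lung 1 and liver 3 (adjusted p = 0.0141 with a fold under 2 and 0.0187 with a fold under 2), Id1 without lung 1, lung 3 and liver 1 (adjusted p = 0.096, 0.0714 and 0.0692) and Bmp6 without lung 1, lung 2, lung 3, liver 1 and liver 2 (adjusted p = 0.0672, 0.18, 0.0726, 0.128 and 0.0886). In a different fit the call was lost for Bmp6 in a fit that added the brain libraries (adjusted p = 0.267) and for Bmp6 in a fit that was not robust (adjusted p = 0.0502). Under another setting the call was lost for Bmp6 without both lung 2 and liver 2 (adjusted p = 0.146).

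**Figure D4:**
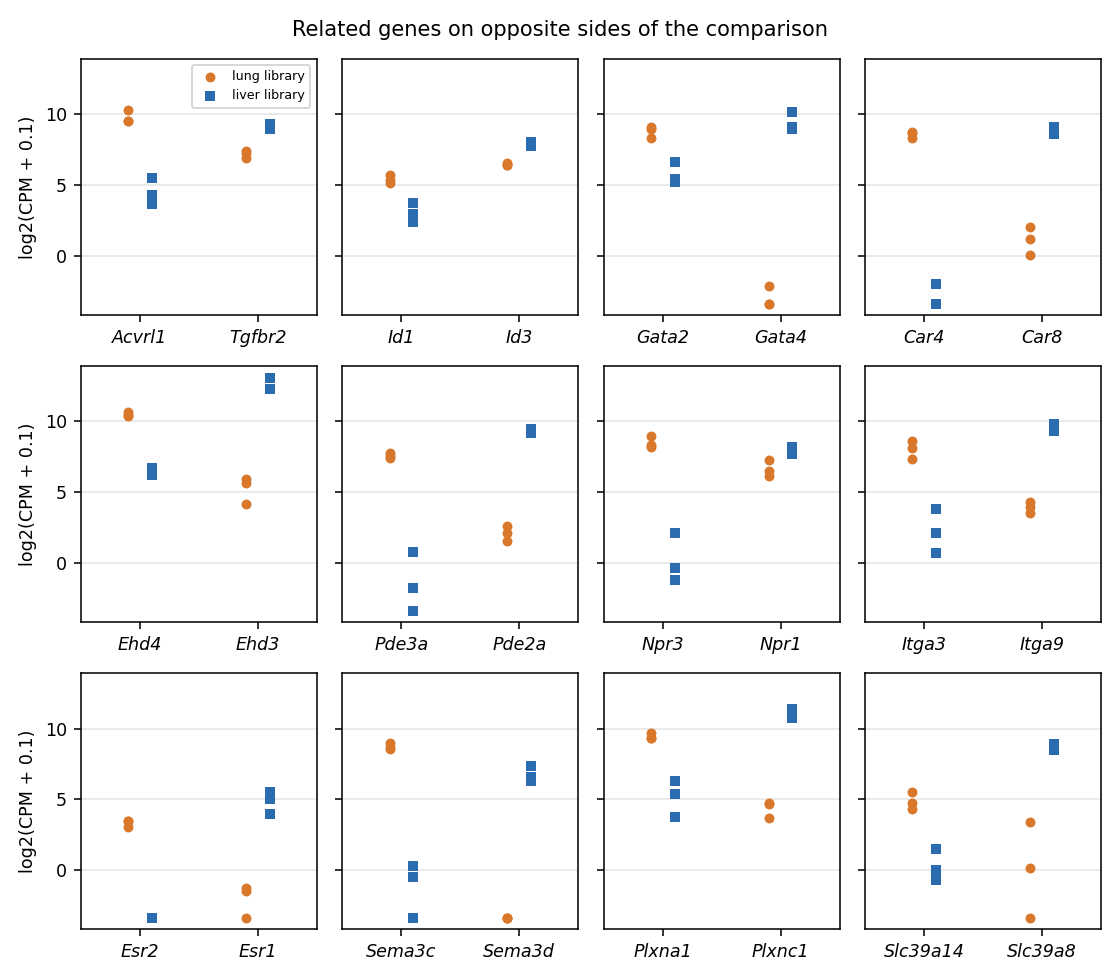
Level in each library of 12 related gene pairs, on a log2 axis with 0.1 CPM added; in each pair the left gene is the one called higher in lung (Acvrl1, Id1, Gata2, Car4) and the right gene the one called higher in liver (Tgfbr2, Id3, Gata4, Car8). Orange circles are lung libraries and blue squares liver libraries. The pairs were picked for having members on opposite sides. Pairs called on the same side, such as Tbx2 and Tbx3, are not drawn.

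Angiogenic receptors and ligands were called in both directions. Of 24 tested genes of the VEGF and angiopoietin systems 4 (2 without lung 1, 1 without lung 2, 2 without lung 3) were higher in lung and 3 lower (median 0.56). Vegfa had 481, 527 and 378 CPM in lung and 26.1, 7.85 and 54.9 in liver (log2 ratio 3.96 ± 0.61, adjusted p = 0.00165). Flt1 and Tek, the receptors VEGFR1 and TIE2, were not called: Flt1 had 595, 651 and 562 CPM in lung and 693, 814 and 569 in liver and Tek 631, 412 and 441 CPM in lung and 602, 522 and 580.0 in liver. The receptors best known from lymphatic vessels were higher in liver, Flt4 (VEGFR3) with 1896, 2848 and 1961 CPM in liver and 312, 185 and 274 in lung (log2 ratio -3.12 ± 0.28, adjusted p = 6.43e-05). Its coreceptor Nrp2 had 621, 824 and 642 CPM in liver and 15.4, 17.9 and 19.4 in lung (log2 ratio -5.31 ± 0.29, adjusted p = 3.17e-06). Nrp1 had 787, 615 and 877 CPM in lung and 1103, 1211 and 1398 in liver and was not called (edgeR adjusted p = 0.0577). Of 9 tested lymphatic genes 3 were lower in lung, namely Flt4, Nrp2 and Sema3d; Prox1, the lymphatic master factor, and Lyve1 were not called.

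The Notch and arterial genes that passed the test stood mostly on the lung side. Of 23 tested Notch genes 6 (3 without lung 1) were higher and 1 (0 without lung 3) lower (median 0.93). The ligands Dll1, Dll4 and Jag2 and the receptor Notch4 were among them: Dll1 had 63.1, 119 and 54.6 CPM in lung and 9.72, 3.7 and 14.1 in liver (log2 ratio 3.1 ± 0.60, adjusted p = 0.00624). Dll4 had 121, 218 and 132 CPM in lung and 27.4, 69.3 and 66.7 in liver (log2 ratio 1.53 ± 0.43, adjusted p = 0.0369). Jag2 had 38.7, 19.6 and 16.2 CPM in lung and 0.38, 0.6 and 2.14 in liver (log2 ratio 4.56 ± 0.93, adjusted p = 0.00823). Notch4 had 237, 373 and 314 CPM in lung and 83.1, 143 and 83.3 in liver (log2 ratio 1.58 ± 0.32, adjusted p = 0.00844). The target Hey1 had 140.2, 144 and 75.3 CPM in lung and 3.91, 7.9 and 2.9 in liver (log2 ratio 4.61 ± 0.55, adjusted p = 0.000342). The protease Adam10, which cuts Notch receptors, was lower in lung, with 49.6, 24.5 and 39.9 CPM in lung and 111, 112 and 116 in liver (log2 ratio -1.56 ± 0.37, adjusted p = 0.0177). Of 18 arterial genes 7 (4 without lung 1, 4 without liver 1) were higher in lung, such as Efnb2, which encodes ephrin-B2, with 920.4, 866 and 749.6 CPM in lung and 102, 91.8 and 116 in liver (log2 ratio 3.03 ± 0.24, adjusted p = 2.69e-05). The arterial connexin gene Gja4 was the exception, with 195, 372 and 115 CPM in liver and 61.8, 56.4 and 47.6 in lung (log2 ratio -2.04 ± 0.43, adjusted p = 0.00926). Of 15 venous genes 4 were higher and 5 lower. On leaving out 1 library the call was lost for Dll4 without lung 1, lung 2, lung 3, liver 1 and liver 3 (adjusted p = 0.0591, 0.129, 0.0747, 0.104 and 0.0733), Jag2 without lung 1 (adjusted p = 0.0552) and Adam10 without lung 3 (adjusted p = 0.0676). The call was absent for Dll1 in a fit that added the brain libraries (adjusted p = 0.0535) and for Dll4 without both lung 2 and liver 2 (adjusted p = 0.0584).

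Guidance genes of the semaphorin family were called in both directions. Of 34 tested axon guidance genes 11 were higher in lung and 6 lower. Plxna1, a plexin receptor, had 645, 828 and 649 CPM in lung and 79.6, 13.4 and 41.3 in liver (log2 ratio 3.98 ± 0.56, adjusted p = 0.000984). Plxnc1 had 1935, 2641 and 1677 CPM in liver and 27.1, 13.1 and 25.4 in lung (log2 ratio -6.56 ± 0.38, adjusted p = 4.95e-06). Its known ligand Sema7a was the one high in the other tissue, with 315, 452 and 268 CPM in lung and 9.02, 6.7 and 9.4 in liver (log2 ratio 5.36 ± 0.36, adjusted p = 1.24e-05). Robo1, a Slit receptor, had 27.7, 75.9 and 68.6 CPM in liver and 1.94, 0 and 0.259 in lung (log2 ratio -6.02 ± 1.0, adjusted p = 0.00264).

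More vasoactive genes stood higher in lung than lower. Of 36 tested 17 were higher in lung and 6 lower (median 1.54), and 13 to 16 were higher in the fits without 1 library. The β-adrenergic receptor Adrb1 was among the former and had 63, 32 and 76.8 CPM in lung and 0.109, 0.4 and 0.168 in liver (log2 ratio 7.94 ± 0.79, adjusted p = 0.000107). Calcrl, the receptor of adrenomedullin and CGRP, had 3515, 2369.6 and 2376 CPM in lung and 833, 984 and 647 in liver (log2 ratio 1.75 ± 0.25, adjusted p = 0.00104). Its partner Ramp2 had 877, 1550.3 and 959 CPM in lung and 345, 353 and 216 in liver (log2 ratio 1.89 ± 0.30, adjusted p = 0.00209). Enzymes that end prostaglandin and amine signals were higher in lung as well, with 860.3, 432 and 519.9 CPM in lung and 319.6, 259.9 and 221 in liver (log2 ratio 1.18 ± 0.30, adjusted p = 0.0258) for Hpgd and 27.7, 29 and 21.2 CPM in lung and 0.435, 0.35 and 0.924 in liver (log2 ratio 5.48 ± 0.81, adjusted p = 0.00128) for Maoa, monoamine oxidase A. The serotonin carrier Slc6a4 was not called, at 23.6, 5.22 and 25.8 CPM in lung and 11.9, 3.45 and 10.5 in liver. The noradrenaline carrier Slc6a2, in contrast, had 323, 292 and 153 CPM in lung and 0, 0 and 0.084 in liver (adjusted p = 7.3e-06). A single left-out library ended the call for Hpgd without lung 1, lung 3, liver 2 and liver 3 (adjusted p = 0.114, 0.0535, 0.0521 and 0.095).

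Genes of cyclic nucleotide signalling were called in both directions. The cAMP phosphodiesterase Pde3a had 191, 220.2 and 174 CPM in lung and 1.63, 0.2 and 0 in liver (log2 ratio 8.35 ± 1.11, adjusted p = 0.000713). Pde2a, which cGMP activates, had 595, 698 and 640.4 CPM in liver and 4.36, 2.94 and 6.21 in lung (log2 ratio -7.12 ± 0.37, adjusted p = 2.97e-06). Of the natriuretic peptide receptors, the clearance receptor Npr3 had 504, 294 and 323 CPM in lung and 0.706, 0.35 and 4.41 in liver (log2 ratio 7.65 ± 0.91, adjusted p = 0.00034). The guanylyl cyclase receptors were higher in liver, Npr1 at 226, 292 and 208 CPM in liver and 90.1, 158 and 73 in lung (log2 ratio -1.18 ± 0.35, adjusted p = 0.0432). Npr2 had 14.1, 43.5 and 37.5 CPM in liver and 1.62, 2.28 and 1.81 in lung (log2 ratio -4.07 ± 0.73, adjusted p = 0.00383). Nos3, the endothelial nitric oxide synthase, was higher in liver too, with 43.2, 48.8 and 49.3 CPM in liver and 10.3, 15.3 and 6.08 in lung (log2 ratio -2.16 ± 0.53, adjusted p = 0.0197). The cyclooxygenases were divided: Ptgs1 had 627, 475 and 538 CPM in liver and 109, 51.9 and 52.9 in lung (log2 ratio -2.93 ± 0.35, adjusted p = 0.00036). The inducible Ptgs2 had 19.4, 4.89 and 9.97 CPM in lung and no count in liver (at least 237-fold higher in lung, adjusted p = 0.00354). Leaving out 1 library ended the call for Npr1 without lung 1, lung 3, liver 1, liver 2 and liver 3 (adjusted p = 0.12, 0.16, 0.0684, 0.0803 and 0.0637) and Nos3 without lung 1, lung 3 and liver 3 (adjusted p = 0.0647, 0.0871 and 0.0536). A different setting gave no call for Npr1 with RLE size factors (adjusted p = 0.0661) and for Npr1 with scaling by library size alone (adjusted p = 0.07). Another setting ended the call for Npr1 without Rn45s, Malat1 and mitochondrial genes (adjusted p = 0.0567).

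Genes of gas, water and ion handling were called in both directions, with different family members on each side. Of 30 tested 8 were higher in lung and 6 (2 without lung 1, 1 without lung 3) lower (median 0.83). Carbonic anhydrase Car4, anchored at the surface of alveolar capillaries, had 3 counts over the liver libraries and 320.2, 413 and 441 CPM in lung; Car8, a family member without catalytic activity, had 466, 542 and 396 CPM in liver and 0.97, 2.28 and 4.14 in lung (log2 ratio -7.59 ± 0.55, adjusted p = 1.91e-05). The cytosolic Car13 had 5.6, 4.8 and 5.88 CPM in liver and no count in lung (at least 41.9-fold higher in liver, adjusted p = 0.0166). The mechanically gated channel gene Piezo2 had 371, 683 and 501 CPM in lung and 11.2, 0.55 and 16.4 in liver (log2 ratio 5.79 ± 0.94, adjusted p = 0.00228). Its relative Piezo1 was not called, at 143, 182 and 125 CPM in lung and 69.1, 88.4 and 76.6 in liver (edgeR adjusted p = 0.0641). Clic5, a chloride channel protein linked to the cortical cytoskeleton, had 1168, 866 and 958 CPM in lung and 14.6, 3.35 and 20.3 in liver (log2 ratio 6.29 ± 0.62, adjusted p = 0.000104). The sodium channel subunit Scn3b was higher in lung, at 161, 244 and 306 CPM in lung and 0, 0.1 and 4.11 in liver (log2 ratio 7.35 ± 1.35, adjusted p = 0.00459). The water channel Aqp1 was high in both beds and higher in liver, with 2589.7, 2575 and 2591 CPM in liver and 858, 1654 and 1099 in lung (log2 ratio -1.1 ± 0.25, adjusted p = 0.0143). The calcium channel Cacna1c had 71.4, 78.3 and 50.2 CPM in lung and 0.543, 0.6 and 0.714 in liver (log2 ratio 6.73 ± 0.58, adjusted p = 4.05e-05). The call was lost on leaving out 1 library for Car13 without lung 1 and lung 3 (adjusted p = 0.0576 and 0.0592) and Aqp1 without lung 1 and lung 3 (adjusted p = 0.0369 with a fold under 2 and 0.0606). In a different fit the call was lost for Aqp1 with scaling by library size alone (adjusted p = 0.0258 with a fold under 2) and for Aqp1 in a fit that added the brain libraries (adjusted p = 0.414). Under another setting the call was lost for Piezo2 and Scn3b with no filter on low counts (adjusted p = 0.0644 and 0.0993). A call was gained by Piezo1 with scaling by library size alone (adjusted p = 0.023).

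Of 203 tested solute carriers 27 (15 without lung 1, 16 without lung 2, 14 without lung 3) were higher in lung and 19 lower, together 22.7% against 15.5% of all genes tested. The glucose carrier Slc2a1 was low in both, at 23.7, 12.1 and 34.9 CPM in lung and 5.6, 2.1 and 0.84 in liver (log2 ratio 3.05 ± 0.88, adjusted p = 0.0414). The monocarboxylate family members Slc16a9 and Slc16a12 were opposite: Slc16a9 had 367, 241 and 389.7 CPM in lung and 0, 0 and 3.4 in liver (log2 ratio 8.14 ± 1.41, adjusted p = 0.00336). Slc16a12 had 23.3, 11.3 and 25.9 CPM in liver and no count in lung (at least 156-fold higher in liver, adjusted p = 0.00172). Metal carriers were opposite too, with 20.3, 45 and 26.4 CPM in lung and 0.543, 0.9 and 2.69 in liver (log2 ratio 4.45 ± 0.85, adjusted p = 0.00563) for Slc39a14 and 405, 367 and 471 CPM in liver and 10.4, 0 and 1.04 in lung (log2 ratio -6.59 ± 1.0, adjusted p = 0.00159) for Slc39a8, both of which carry manganese, zinc and iron. The iron exporter Slc40a1 had 172, 222 and 196 CPM in liver and 1.54, 8.81 and 11.1 in lung (log2 ratio -4.81 ± 0.66, adjusted p = 0.000827); of 21 iron and haem genes 2 (1 without lung 1, 1 without lung 2, 1 without lung 3, 1 without liver 1, 1 without liver 2) were higher in lung and 7 (3 without lung 1, 3 without lung 3) lower. On leaving out 1 library the call was lost for Slc2a1 without lung 1, lung 2, lung 3, liver 2 and liver 3 (adjusted p = 0.105, 0.0527, 0.177, 0.0706 and 0.0983). The call was absent for Slc16a9 and Slc39a8 with no filter on low counts (adjusted p = 0.0919 and 0.0542).

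Genes of caveolae and vesicles were more often higher in lung, and members of the EHD family were called in both directions. Of 16 tested genes of caveolae, fenestrae and vesicles 7 were higher in lung and 1 (2 without lung 2) was lower (median 2.11). Ptrf, which encodes the caveolar coat protein cavin 1, had 245, 237 and 226 CPM in lung and 41.1, 45.8 and 48 in liver (log2 ratio 2.39 ± 0.28, adjusted p = 0.000323). Cav2 had 378, 271 and 311 CPM in lung and 135, 164 and 116 in liver (log2 ratio 1.21 ± 0.27, adjusted p = 0.0134). The coat protein gene Sdpr, cavin 2, was not called, at 719, 725 and 606 CPM in lung and 678, 589 and 622 in liver (edgeR adjusted p = 0.778). Of the EHD proteins, ATPases that remodel membranes, Ehd4 had 1354, 1635 and 1374 CPM in lung and 87.7, 73.8 and 105 in liver (log2 ratio 4.03 ± 0.25, adjusted p = 7.3e-06). Ehd1 had 113, 121 and 119.6 CPM in lung and 25.6, 22.2 and 24.6 in liver (log2 ratio 2.29 ± 0.34, adjusted p = 0.00136). Ehd3 had 4965, 8749 and 4960.5 CPM in liver and 17.9, 51.9 and 61.6 in lung (log2 ratio -7.16 ± 0.53, adjusted p = 1.91e-05). Ehd2, the member at the neck of caveolae, was scattered between the liver libraries and was not called, with 391, 687 and 439.6 CPM in lung and 3.15, 170.0 and 21.7 in liver (edgeR adjusted p = 0.0856). A single left-out library ended the call for Cav2 without lung 1, lung 3, liver 1 and liver 3 (adjusted p = 0.0678, 0.0544, 0.0564 and 0.0628). Not called here, Ehd2 was called with scaling by library size alone (adjusted p = 0.0456), without liver 2 (adjusted p = 0.00116) and without both lung 2 and liver 2 (adjusted p = 0.00721).

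Junction genes were called in both directions. Of 34 tested 10 were higher in lung and 9 lower. The tight junction genes Cldn5 and Ocln were higher in lung, with 333, 619 and 552 CPM in lung and 57.2, 52.2 and 65.2 in liver (log2 ratio 3.11 ± 0.31, adjusted p = 0.000119) for claudin 5 (Cldn5) and 44.2, 22.5 and 35.1 CPM in lung and no count in liver (at least 704-fold higher in lung, adjusted p = 0.000273) for occludin (Ocln). Cdh5, VE-cadherin of the adherens junction, had 4123, 7038 and 4657 CPM in lung and 1418, 2094 and 1341 in liver (log2 ratio 1.7 ± 0.27, adjusted p = 0.00183). Pecam1, the gate's own antigen, had 1569, 1677 and 1598 CPM in lung and 724, 777 and 637 in liver (log2 ratio 1.18 ± 0.20, adjusted p = 0.00263). On the liver side stood Jam2, a junctional adhesion molecule, with 1996, 1858 and 1352 CPM in liver and 214, 213 and 185 in lung (log2 ratio -3.09 ± 0.24, adjusted p = 2.39e-05). Cdh13, T-cadherin, had 145, 108 and 143 CPM in liver and 4.77, 5.22 and 1.68 in lung (log2 ratio -5.11 ± 0.53, adjusted p = 0.000143). The gap junction protein Gja1, connexin 43, had 192, 203 and 164 CPM in liver and 10.4, 8.48 and 1.04 in lung (log2 ratio -4.81 ± 0.70, adjusted p = 0.00125).

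Integrin and matrix genes were called in both directions. Of 17 tested integrin genes 5 were higher in lung and 2 lower. Itga3, a laminin receptor chain, had 163, 399 and 287 CPM in lung and 14.2, 1.6 and 4.28 in liver (log2 ratio 5.4 ± 0.78, adjusted p = 0.00113). The collagen receptor chain Itga2 had 39.6, 56.1 and 53.3 CPM in lung and 0.598, 0 and 1.05 in liver (log2 ratio 6.46 ± 1.09, adjusted p = 0.00284). Itga9 had 632, 904 and 762 CPM in liver and 20, 16 and 11.5 in lung (log2 ratio -5.59 ± 0.33, adjusted p = 6.74e-06). Itga8 had 186, 163 and 199 CPM in liver and 17.9, 15.3 and 11.9 in lung (log2 ratio -3.6 ± 0.35, adjusted p = 9.13e-05). Of 40 basement membrane and matrix genes 10 were lower in lung and 6 higher. Perlecan, Hspg2, had 735, 911 and 653 CPM in liver and 15.4, 2.94 and 1.04 in lung (log2 ratio -6.8 ± 0.85, adjusted p = 0.000474), and its value in lung 1 was above those of the other lung libraries. Lama3 had 59.7, 30.7 and 55.8 CPM in liver and 1.45, 0 and 4.27 in lung (log2 ratio -4.58 ± 0.96, adjusted p = 0.00919). Eln, elastin, was higher in lung, at 80.2, 52.9 and 40.3 CPM in lung and 7.12, 3.8 and 16.2 in liver (log2 ratio 2.68 ± 0.63, adjusted p = 0.017). Fibroblast and mesothelial markers also differed: of 9 tested 3 were higher in lung, the highest being Npnt at 29.1, 77.3 and 37.3 CPM in lung and 2.12, 0.5 and 5.29 in liver. Their part in the matrix genes was not tested. Leaving out 1 library ended the call for Eln without lung 1 and liver 1 (adjusted p = 0.0798 and 0.0549).

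Adhesion genes for leukocytes were more often higher in lung. Of 24 tested 11 were higher in lung and 5 lower. The membrane-bound chemokine Cx3cl1 had 142, 248 and 274 CPM in lung and 0.109, 0 and 4.37 in liver (log2 ratio 7.17 ± 1.36, adjusted p = 0.00566). Icam1, a ligand of leukocyte integrins, had 628, 481 and 428 CPM in lung and 49, 30.6 and 51.2 in liver (log2 ratio 3.55 ± 0.32, adjusted p = 6.25e-05). Vcam1 had 79.2, 82.7 and 82.1 CPM in liver and 33.5, 12.4 and 20.7 in lung (log2 ratio -1.86 ± 0.45, adjusted p = 0.0195), so the integrin ligands Icam1 and Vcam1 stood on opposite sides. The same held for chemokines, since Cxcl9 had 40.7, 73.8 and 55.3 CPM in liver and 0.242, 0 and 0 in lung (adjusted p = 0.000163). P-selectin, Selp, had 43.6, 154 and 81.3 CPM in liver and 9.7, 0.979 and 16.4 in lung (log2 ratio -3.33 ± 0.82, adjusted p = 0.0211). The call was lost on leaving out 1 library for Vcam1 without lung 3 (adjusted p = 0.0797) and Selp without lung 1 (adjusted p = 0.0571). A different setting gave no call for Cx3cl1 with no filter on low counts (adjusted p = 0.109).

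Antigen presentation genes that passed the test were higher in lung, and so were lymphocyte markers. Of 19 tested antigen presentation genes 7 were higher in lung and 0 lower by edgeR (0 at an unadjusted p under 0.05, 0 by DESeq2) (median 1.39). Ciita, the transactivator of class II genes, had 29.7, 30.7 and 32.4 CPM in lung and no count in liver (at least 641-fold higher in lung, adjusted p = 0.000261). H2-Ab1, a class II chain, had 154, 212 and 182 CPM in lung and 1.58, 0 and 0.42 in liver (log2 ratio 8.11 ± 1.02, adjusted p = 0.000486). The pan-leukocyte gene Ptprc, which encodes the CD45 that the sort selected against, had 22.5, 17.3 and 18.9 CPM in lung and 0, 0.1 and 0.63 in liver (log2 ratio 6.24 ± 1.3, adjusted p = 0.00888). Of 8 tested lymphocyte markers 6 were higher in lung. Their part in these values was not tested. The class I genes H2-K1 and H2-D1 had edgeR adjusted p-values of 0.0354 and 0.0342 but missed the fold of 2: H2-K1 had 1305, 1597 and 1268 CPM in lung and 631, 934 and 814 in liver. A call was gained by H2-K1 with scaling by library size alone (adjusted p = 0.00485). Not called here, H2-D1 was called with scaling by library size alone (adjusted p = 0.00341), without lung 1 (adjusted p = 0.0415) and without liver 2 (adjusted p = 0.012).

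Interferon-response genes were called in both directions, with 6 (3 without lung 1) of 38 higher in lung and 4 lower. Ly6a, the surface antigen Sca-1, had 1104, 1549 and 1173 CPM in lung and 176, 215 and 119 in liver (log2 ratio 2.91 ± 0.29, adjusted p = 0.000107). Irf1 had 399, 227 and 338 CPM in lung and 80, 55 and 69.9 in liver (log2 ratio 2.24 ± 0.32, adjusted p = 0.00103). Ifitm2, a membrane protein against virus entry, had 1359.6, 1815 and 1756 CPM in liver and 303, 306 and 359 in lung (log2 ratio -2.35 ± 0.22, adjusted p = 8.06e-05). Rsad2, viperin, had 136, 150.0 and 142 CPM in liver and 30.2, 3.91 and 6.73 in lung (log2 ratio -3.35 ± 0.68, adjusted p = 0.00795).

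Hormone and retinoid receptors were called in both directions. Of 36 tested nuclear receptors 6 were higher in lung and 6 lower. The oestrogen receptors stood on opposite sides: Esr2 had 10.9, 11.1 and 8.28 CPM in lung and no count in liver (at least 209-fold higher in lung, adjusted p = 0.00314). Esr1 had 15.7, 46.7 and 31.9 CPM in liver and 0.323, 0 and 0.259 in lung (log2 ratio -7.0 ± 0.96, adjusted p = 0.000827). The progesterone receptor Pgr had 17.5, 12.7 and 8.03 CPM in lung and no count in liver (at least 265-fold higher in lung, adjusted p = 0.00213). Of 9 retinoid genes 4 were lower in lung and 0 higher by edgeR (1 at an unadjusted p under 0.05, 1 by DESeq2, 1 without lung 2), with Rarb at 112, 205 and 114 CPM in liver and 12.3, 1.63 and 5.82 in lung (log2 ratio -4.39 ± 0.65, adjusted p = 0.00143). The retinoic acid hydroxylase Cyp26b1 had 815, 1252 and 1768 CPM in liver and 87.2, 219 and 167 in lung (log2 ratio -3.02 ± 0.40, adjusted p = 0.00067).

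Lipid genes showed Fabp4, a fatty acid carrier of capillaries, at 236, 162 and 164 CPM in liver and 0.566, 0 and 0.259 in lung (log2 ratio -8.99 ± 0.62, adjusted p = 1.38e-05). Apoe had 389.7, 637 and 548 CPM in liver and 8.32, 39.5 and 11.4 in lung (log2 ratio -4.78 ± 0.59, adjusted p = 0.000466). Of 32 fatty acid and lipoprotein genes 5 (3 without lung 1, 2 without lung 2, 2 without liver 1, 3 without liver 3) were higher in lung and 5 lower. The hepatocyte protein Fabp1 was among the latter, with 11.3, 11.9 and 20.7 CPM in liver and no count in lung (at least 113-fold higher in liver, adjusted p = 0.00287); hepatocytes also make Apoe, and their part was not tested.

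Immediate early genes, which cells switch on within minutes of a stimulus and which tissue digestion is known to induce, were higher in lung in most members tested. Of 27 tested genes of the immediate early and dissociation list 20 were higher in lung and 0 lower by edgeR (0 at an unadjusted p under 0.05, 0 by DESeq2) (median 3.45, against -0.03 over all genes); 15 to 17 were higher in the fits without 1 library. Ier3 had 906, 765 and 582 CPM in lung and 9.07, 3.0 and 30.4 in liver (log2 ratio 5.73 ± 0.76, adjusted p = 0.000698). Egr1, a zinc finger factor, had 4260.2, 6431 and 4409 CPM in lung and 91.5, 140.5 and 118 in liver (log2 ratio 5.43 ± 0.29, adjusted p = 3.17e-06). The AP-1 subunit Fosb had 806, 413 and 813 CPM in lung and 0.761, 36 and 24.8 in liver (log2 ratio 5.04 ± 1.01, adjusted p = 0.00727). The stress factor Atf3 had 764, 494 and 536 CPM in lung and 18.7, 14.3 and 35.4 in liver (log2 ratio 4.71 ± 0.41, adjusted p = 5.31e-05). In all 4 genes every lung library lay above every liver library, and 1897 of all 1901 called genes were likewise without overlap. The constitutive chaperone gene Hspa8 was not called, at 659, 413 and 571 CPM in lung and 450.2, 426 and 448 in liver. The inducible heat shock gene Hspa1a had 1079, 509.9 and 616 CPM in lung and 141, 151 and 411 in liver (log2 ratio 1.65 ± 0.45, adjusted p = 0.0326). Both tissues went through the same digestion per the labels, and the order or time at which each was handled is not given in the sources used here. The state before digestion and its effect cannot be told apart. That limit also covers genes described under other lists, such as Klf4, Klf2, Icam1, Irf1, Ptgs2, Plaur and Cdkn1a. On leaving out 1 library the call was lost for Hspa1a without lung 1, lung 2, lung 3, liver 1 and liver 2 (adjusted p = 0.12, 0.0518, 0.0542, 0.0952 and 0.0754). Another setting ended the call for Fosb with no filter on low counts (adjusted p = 0.122) and for Hspa1a without both lung 2 and liver 2 (adjusted p = 0.0581).

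The promoters of this list were read from RefSeq on the build GRCm38.p6, the 250 bases before each gene's start, for the 21 of 28 members with an entry. Fosl1, Egr1, Egr3, Ier2, Hspa8, Hsp90aa1 and Myc had no entry, so their promoters were not searched. Bases further upstream were not searched for any gene. A pair of motifs was searched: the CArG box that serum response factor binds, and the cyclic AMP response element TGACGTCA, both of which read the same on either strand. The CArG box was present for 2 members, Egr2 and Zfp36, and for 1.62% of all genes with a promoter entry. The element TGACGTCA was present for 2 members, Dusp1 and Btg2, and for 1.77% of all genes. A match is a description of the sequence. The 3 members below were picked for their motif, which is in capitals, after their values were seen, and all lie on the minus strand: Zfp36 at chr7:28379229-28379478, Dusp1 at chr17:26508473-26508722 and Btg2 at chr1:134079156-134079405.
Zfp36: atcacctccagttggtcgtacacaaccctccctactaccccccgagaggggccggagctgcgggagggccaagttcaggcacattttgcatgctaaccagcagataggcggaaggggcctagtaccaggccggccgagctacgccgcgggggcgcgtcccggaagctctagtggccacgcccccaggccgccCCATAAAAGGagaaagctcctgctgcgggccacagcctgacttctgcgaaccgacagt
Dusp1: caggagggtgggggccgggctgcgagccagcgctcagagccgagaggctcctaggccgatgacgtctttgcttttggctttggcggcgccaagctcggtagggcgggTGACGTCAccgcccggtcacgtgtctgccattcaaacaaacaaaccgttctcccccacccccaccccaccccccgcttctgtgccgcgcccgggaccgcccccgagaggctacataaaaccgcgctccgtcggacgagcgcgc
Btg2: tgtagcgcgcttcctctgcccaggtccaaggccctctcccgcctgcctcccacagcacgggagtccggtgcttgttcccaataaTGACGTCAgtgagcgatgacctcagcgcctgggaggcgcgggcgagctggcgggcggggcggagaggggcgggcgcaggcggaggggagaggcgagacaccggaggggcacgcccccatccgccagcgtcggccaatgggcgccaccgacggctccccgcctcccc
The motif began 58 bases before the gene's start in Zfp36, 143 in Dusp1 and 166 in Btg2. Zfp36, which encodes the mRNA decay factor tristetraprolin, had 2389, 2823 and 1803 CPM in lung and 113, 171 and 234 in liver (log2 ratio 3.76 ± 0.32, adjusted p = 4.51e-05). Dusp1, a phosphatase that ends MAP kinase signals, had 1266, 2074 and 1276 CPM in lung and 319, 288 and 535 in liver (log2 ratio 2.02 ± 0.31, adjusted p = 0.00183). The antiproliferative gene Btg2 had 584, 550.4 and 476 CPM in lung and 61.4, 18.1 and 50.6 in liver (log2 ratio 3.63 ± 0.44, adjusted p = 0.000367). Egr2 had 37.2, 11.1 and 13.6 CPM in lung and 0.815, 0 and 4.28 in liver and was not called (edgeR adjusted p = 0.121). A call was gained by Egr2 with DESeq2 (adjusted p = 0.0154) and without both lung 2 and liver 2 (adjusted p = 0.049).

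**Figure D5:**
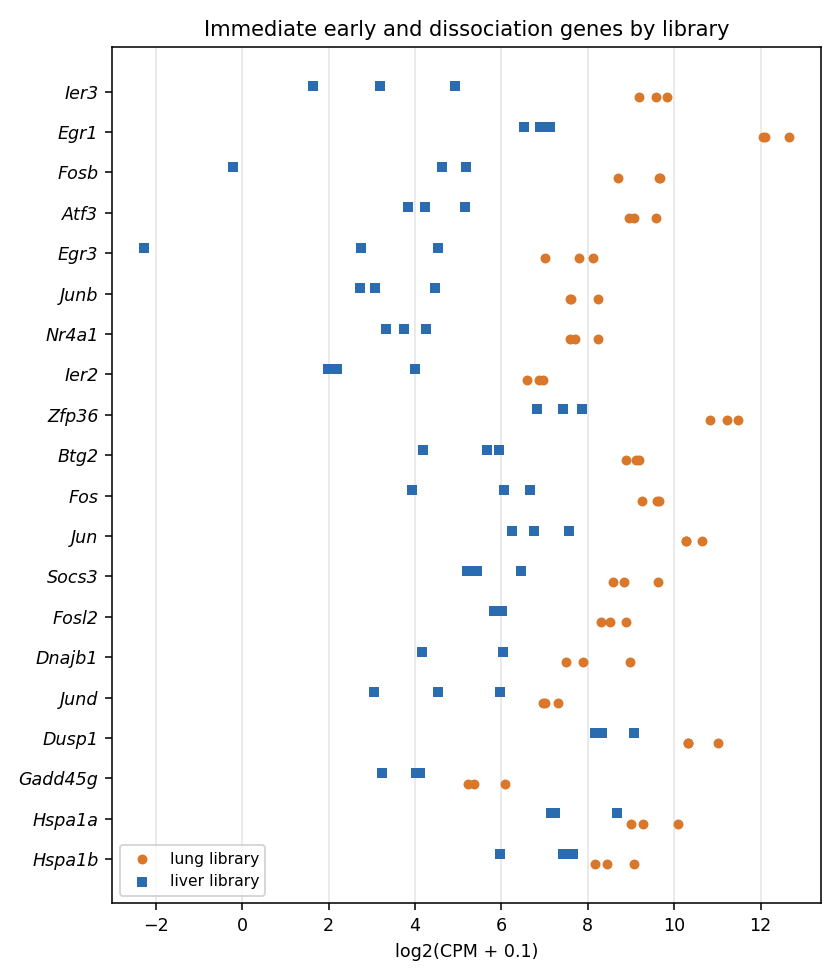
Level of 20 immediate early and dissociation genes called higher in lung, in each library on a log2 axis with 0.1 CPM added; orange circles are the 3 lung libraries and blue squares the 3 liver libraries, ordered by log2 fold change. In all 20 genes the lung libraries lie above the liver libraries. Libraries of the tissues do not overlap for 1897 of all 1901 called genes, against 36.2% of genes tested.

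Of 18 tested cell cycle genes 1 was higher in lung and 3 were lower, 22.2% together, against 15.5% of all genes tested. The shares called were 22.7% for the glycolysis list, 2.56% for oxidative phosphorylation and 9.09% for Hox genes. The inhibitor Cdkn1a was the one higher in lung, at 784, 942 and 656 CPM in lung and 29.8, 54.6 and 58.1 in liver (log2 ratio 4.06 ± 0.34, adjusted p = 3.46e-05). Cyclin D2, Ccnd2, was lower, at 84.4, 56.4 and 66.9 CPM in lung and 488, 823 and 483 in liver (log2 ratio -3.11 ± 0.32, adjusted p = 0.000135). Of 22 glycolysis genes 2 (0 without lung 1, 1 without lung 2, 1 without lung 3, 1 without liver 2, 1 without liver 3) were higher in lung and 3 (1 without lung 1) lower. Pdk4, a kinase that switches off pyruvate dehydrogenase, had 69.6, 58.6 and 83.5 CPM in liver and 2.83, 7.18 and 0.259 in lung (log2 ratio -4.46 ± 0.90, adjusted p = 0.0075). The lactate dehydrogenase Ldhb had 37.1, 29.5 and 18.8 CPM in liver and 0.727, 0 and 2.72 in lung (log2 ratio -4.53 ± 1.04, adjusted p = 0.0149). Of 39 oxidative phosphorylation genes 1 (0 without lung 2) was higher in lung and 0 lower by edgeR (5 at an unadjusted p under 0.05, 3 by DESeq2, 1 without lung 2, 1 without liver 2). It was Cox4i2, a cytochrome c oxidase subunit and a mural marker as well, with 2.18, 9.79 and 6.47 CPM in lung and no count in liver (at least 127-fold higher in lung, adjusted p = 0.0108). Of 11 tested Hox genes, which mark position along the body axis, 1 (0 without lung 1, 0 without lung 2, 0 without lung 3, 0 without liver 2, 0 without liver 3) was lower in lung and 0 higher by edgeR (0 at an unadjusted p under 0.05, 0 by DESeq2); it was Hoxa4, with 14.1, 31.7 and 18.1 CPM in liver and 4.44, 2.61 and 4.4 in lung (log2 ratio -2.46 ± 0.71, adjusted p = 0.0412). A single left-out library ended the call for Ldhb without lung 1 (adjusted p = 0.0534), Cox4i2 without lung 2 (adjusted p = 0.0517) and Hoxa4 without lung 1, lung 2, lung 3, liver 2 and liver 3 (adjusted p = 0.0966, 0.0875, 0.117, 0.0924 and 0.0692). In a different fit the call was lost for Hoxa4 with scaling by library size alone (adjusted p = 0.0724) and for Hoxa4 in a fit that added the brain libraries (adjusted p = 0.0796). Under another setting the call was lost for Hoxa4 without both lung 2 and liver 2 (adjusted p = 0.0918).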

How the data were processed

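RNA of endothelial cells sorted from lung and liver was sequenced in 3 libraries a tissue. The table that the authors deposited holds raw counts per gene; the submitters' processing notes name TopHat, Bowtie2 and HTSeq 0.6.1 and the builds mm9 and mm10 without roles. Overlapping and antisense genes are not told apart, since strand use in counting is not given in the sources used here. Groups follow the labels. The counts were fitted with edgeR 4.0.16 (R 4.3.3): filterByExpr, TMM scaling and a robust quasi-likelihood test on the 6 libraries, with Benjamini-Hochberg adjustment over 12240 genes. A gene was called at an adjusted p under 0.05 and a fold change of 2 or more in either direction (log2 of 1). The SE is the fold change divided by the square root of F. Against a tissue without a count, a bound used a floor of 3 counts over its libraries. The precision was limited. In data simulated with 200 changed genes among the 12240 tested, 0% of 2-fold, 19% of 4-fold and 73.5% of 16-fold changes were recovered. There were 1, 3 and 7 false calls. Recovery was scored by adjusted p alone, without the fold of 2. The data had 1901 called genes against 200 changed ones here, so these rates need not hold for the test above. DESeq2 1.42.0 was an alternative. Intervals of counting error were not used.

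The members, the 64 gene lists and the tests were chosen with earlier results of these data known. Genes named were, in each direction, the 10 of largest fold whose mean log2 CPM reached 5, the 6 highest with no count in the other tissue, members of 14 core lists and of the marker lists, and from each other list up to 4 called members a direction and 2 uncalled ones; the text gives part of these. Outside the rule, and after their values were seen, Btg2, Cacna1c, Dusp1, Efnb2, Egr2, Fli1, Hspa1a, Nkd1, Slc16a9, Tcf7l1, Vcam1 and Zfp36 were named. The list members C1s, Ighm, Igkc, Ly6g and Trac had no row under these symbols and are not analysed here, and some genes are not reported here.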

Additional observations from a re-analysis of the deposited data

How the results depend on the processing

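Counts of called genes kept within 1.5 times of 1901 under the other scalings, filters and tools, at 1694 to 2718; DESeq2 gave 1463 higher and 1255 lower. With scaling by library size alone the median log2 ratio shifted by 0.203, with 1130 higher and 684 lower, 62.3% higher instead of 52.7%. Leaving out 1 library gave 1237 to 1871 calls, 692 to 1038 higher and 542 to 833 lower; the fewest, 1237 and 542, came without lung 3. Deviations of same-numbered libraries from their tissue means correlated at 0.040, 0.085 and 0.020, and those of other pairs at -0.078 to 0.062. The value for lung 2 with liver 2 was the largest, while lung 1 correlated best with liver 3. Correlations this weak over 3 libraries a tissue cannot decide whether the numbers pair the libraries. The replicate block gave 835 higher and 748 lower.

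Of 195 called genes named, 155 kept their call under all 16 alternatives, the others lost it under at least 1, and 0 changed sign. Uncalled genes that changed sign were Eng (log2 ratio 0.12), Flt1 (0.032) and Tek (0.0092) by library size alone, and Lman1 (0.039) and Sox17 (-0.30) without both second replicates. Leaving out 1 library gave -0.44 to 0.079 for Eng, -0.69 to 0.21 for Hhex, -1.13 to 0.0043 for Prox1, -0.36 to 0.46 for Sox17 and -0.60 to 0.16 for Tgfb1. The cause was not tested. Calls of named genes were lost for 11 with no filter on low counts, 6 without both second replicates, 6 under the replicate block (Bmp6, Car13, Hoxa4, Mcfd2, Selp and Slc2a1), 5 with the brain libraries in the fit, 4 by library size alone, 2 with RLE size factors, 2 without Rn45s, Malat1 and mitochondrial genes and 1 in the fit that was not robust; apart from the block these stand beside the results. Of 25 uncalled genes named, 6 gained a call under at least 1 alternative, as given beside the results, Ehd2 also under the replicate block (adjusted p = 0.0159). Lung totals of 2992101 to 11308897 counts limit what a gene without a lung count shows, to the floor of 0.129 CPM over the tissue.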

Other observations

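Proteases and their inhibitors, which the account above leaves out, were called in both directions. Of 32 tested ADAM, ADAMTS, MMP and TIMP genes 7 were higher in lung and 5 lower. Adam23, a family member without protease activity, had 1765, 2285 and 1192 CPM in liver and 4.93, 6.2 and 3.11 in lung (log2 ratio -8.56 ± 0.42, adjusted p = 2.38e-06). Timp2, an inhibitor of matrix metalloproteinases, had 704, 584 and 804 CPM in lung and 63.7, 96.2 and 25 in liver (log2 ratio 3.5 ± 0.45, adjusted p = 0.000598). Mmp15 had 30, 48.9 and 44 CPM in lung and 0.163, 0 and 0.588 in liver (log2 ratio 7.27 ± 1.11, adjusted p = 0.0016). Of 23 tetraspanins 5 (3 without liver 1) were higher in lung and 3 (1 without lung 1, 1 without lung 2, 1 without liver 2) lower. Tspan13 had 464, 199 and 394 CPM in lung and 10.5, 6.3 and 17.8 in liver (log2 ratio 4.93 ± 0.50, adjusted p = 0.000132). Cd81, a partner of integrins, had 374, 456 and 328 CPM in liver and 26.3, 37.2 and 23.8 in lung (log2 ratio -3.74 ± 0.32, adjusted p = 4.05e-05).

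Of 32 glycocalyx genes 5 were higher in lung and 2 (1 without lung 1, 1 without lung 2, 1 without lung 3, 1 without liver 1, 1 without liver 3) lower. That made 21.9%, against 15.5% of all genes tested. The sialomucin Cd34 had 215, 270.5 and 289 CPM in lung and 19.3, 21.5 and 9.49 in liver (log2 ratio 3.95 ± 0.40, adjusted p = 0.000123). Hs3st1, a heparan sulfate sulfotransferase, had 107, 124 and 63.2 CPM in lung and 0.217, 0 and 3.11 in liver (log2 ratio 6.43 ± 1.28, adjusted p = 0.00723). The heparan sulfate-cutting enzyme Hpse had 87.4, 156 and 76.4 CPM in liver and 2.02, 0 and 11.5 in lung (log2 ratio -4.5 ± 1.02, adjusted p = 0.014). Of 27 cytochromes P450 2 (1 without lung 1, 1 without lung 2, 1 without lung 3, 1 without liver 3) were higher in lung and 6 (1 without lung 1, 2 without lung 2, 1 without lung 3, 2 without liver 3) lower. Together these made 29.6%, against 15.5% of all genes tested. Cyp1a1, a target of the aryl hydrocarbon receptor, had 54.1, 17.3 and 32.6 CPM in lung and 2.06, 2.8 and 0.84 in liver (log2 ratio 4.19 ± 0.77, adjusted p = 0.00462). It stood on the smaller side, while Cyp26b1, described above, was lower in lung. The hepatocyte marker list also holds Cyp2e1 and Cyp3a11, and the part of hepatocytes in the lower calls was not tested. The call was absent for Hs3st1 and Hpse with no filter on low counts (adjusted p = 0.0606 and 0.0502).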
